A study of Mus musculus with 22 samples.

Results

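Sox9, Sox2, Nfia, Nfib, Nfix, Id3, Id4, Hes1, Hes5 and Lhx2 encode transcription regulators that are commonly listed as astrocyte factors. Their ribosome-bound mRNA was followed across 6 cell types of the mouse brain. The 10 genes were chosen by name out of 55385 genes in the tables. No measured level entered the rule, but earlier results of these data were known when the genes were chosen. All 10 were among the 20524 genes that passed a filter on low counts. All mice were 6 weeks old and Rpl22 Fl/+, which means that Cre recombinase gave a ribosomal protein an HA tag in the cells where it was active, and ribosomes with their mRNA were then pulled from whole tissue with an anti-HA antibody. Cortex gave astrocytes through the driver labelled Aldh1-cre, microglia through Tmem119-cre and layer V cortical neurons through Rbp4-Cre. Per the methods, the astrocyte line was Aldh1l1-cre/ERT2 and the microglial line also carried cre/ERT2, both switched on with tamoxifen. Hippocampus gave dentate gyrus granule cells, again through Rbp4-Cre, and inhibitory interneurons through Dlx6a-Cre, with the tissue of 2 mice in each interneuron library. Cerebellum gave the granule cells of that region through Gabra6-Cre. A group therefore holds every cell of the dissected tissue in which its driver was active, and region and cell type vary together. There were 3 replicates per cell type, 18 libraries in all. In these pooled ribosomes, fewer cells carrying a factor and less of its mRNA per cell cannot be told apart.

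The depth of the 18 libraries ran from 38270477 to 71440915 estimated read counts. The astrocyte, microglial and neuronal libraries carried the markers of those classes. The 16 astrocyte markers summed to between 27320 and 29740 TPM, a transcript level corrected for length and depth, in astrocytes and to at most 1612 TPM elsewhere. The 10 microglial markers summed to between 39910 and 42290 TPM in microglia and to at most 148 TPM elsewhere. The 10 neuronal markers summed to at least 4467 TPM in every neuronal library, but also to 991.2 to 1278 TPM in astrocytes and 474.7 to 538.0 TPM in microglia. The interneuron libraries also held 3016 to 3232 TPM of 9 oligodendrocyte-lineage markers, against 1032 to 1260 TPM in astrocytes, and the microglial libraries held 553.6 to 753.4 TPM of 10 endothelial and mural markers, against 161.1 to 184.9 TPM in astrocytes. All microglial and interneuron libraries were from sequencing batch 2 and all others from batch 1, but 4 further libraries were second-batch runs of replicates from the other 4 cell types. With all 22 libraries and batch as a covariate, the counts of factors that differed between astrocytes and each other cell type were the same as those given here. That fit treated each second run as a separate sample. Its batch term could rest only on the 4 second runs, because microglia and interneurons were in batch 2 alone. In the second-batch run of layer V replicate 1, the sex label differed from that of its first run, while its Xist level of 2.13 TPM and Ddx3y level of 0.03 TPM lay close to those of the first run, at 2.45 and 0.09 TPM. The second-batch runs entered only alternatives.

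The 10 factors fall into families with opposing biochemical roles. SOX2 and SOX9 are HMG-box proteins that bend DNA. SOX2 maintains neural stem cells and SOX9 helps to start gliogenesis, in which NFIA, NFIB and NFIX take part as CCAAT-box-related nuclear factor I proteins. ID3 and ID4 have a helix-loop-helix without a DNA-binding region and hold other basic helix-loop-helix (bHLH) proteins off DNA, and their genes are classic targets of bone morphogenetic protein (BMP) signalling. HES1 and HES5 are bHLH repressors that Notch switches on through the DNA-binding protein RBPJ, and they oppose proneural bHLH factors. LHX2 is a LIM-homeodomain protein of the developing forebrain that is needed for cortical identity.

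Upstream sequence from the RefSeq table of build GRCm38.p6 was at hand for 7 of the 10 genes, in 11 start windows. The 250 bases before the start are shown for Hes5, because it held matches to the RBPJ motif, and for Id4, because it held a match to the N-box bound by HES proteins. Capitals mark these matches.
Hes5, chr4:154960673-154960922, plus strand: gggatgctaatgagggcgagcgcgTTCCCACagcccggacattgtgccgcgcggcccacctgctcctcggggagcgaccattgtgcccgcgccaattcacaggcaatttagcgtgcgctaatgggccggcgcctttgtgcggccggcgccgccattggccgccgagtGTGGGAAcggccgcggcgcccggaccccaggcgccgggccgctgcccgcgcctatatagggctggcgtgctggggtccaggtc
Id4, chr13:48260866-48261115, plus strand: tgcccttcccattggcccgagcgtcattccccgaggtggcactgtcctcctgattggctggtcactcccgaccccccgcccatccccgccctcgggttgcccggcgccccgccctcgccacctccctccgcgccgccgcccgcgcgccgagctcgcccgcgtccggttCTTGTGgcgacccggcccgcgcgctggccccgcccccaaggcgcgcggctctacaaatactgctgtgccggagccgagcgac
Hes5 held 2 matches to GTGGGAA, at bases -226 to -220 on the minus strand and at bases -83 to -77 on the plus strand, counted back from the start. It was alone among the 7 genes in holding this motif, which 5.42% of 32851 promoter windows of the same length held on either strand. Hes5 also held 2 matches to the SOX motif ACAATG, found in 10.7% of windows, and 1 to the E-box CANNTG, found in 66.2%. The Id4 window held 1 match to the N-box CACNAG, at bases -82 to -77 on the minus strand, a motif found in 36.7% of windows and also held by 2 of the 4 Nfix windows. Nfia and Nfix windows held E-box and SOX matches as well. The RefSeq starts did not always match the GENCODE genes measured here. The Nfia window ended at base 97581942, upstream of the GENCODE gene start at 97772734. The Id3 window, from 136143572 to 136143821, lay inside the GENCODE gene, which starts at 136143497. The windows of Sox2, Id3 and Lhx2 held no match to any of the 5 motifs, searched on both strands, and none of the 11 windows held the full nuclear factor I palindrome, found in 0.0365% of windows. These matches describe letters and show no binding.

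The factors split into 2 groups. Sox9, Sox2, Id3, Id4, Hes1, Hes5 and Lhx2 were highest in astrocytes, and in each of these 7 genes all 3 astrocyte libraries lay above all 15 other libraries. The nuclear factor I genes were highest in granule cells, Nfia and Nfix in the cerebellum and Nfib in the dentate gyrus. Over all genes tested, 16.8% were highest in astrocytes and 13% had every astrocyte library above every other. In the tests, each mean of several cell types was a mean of log2 levels, so a type with little of a gene pulls it down. In edgeR, all 10 were higher in astrocytes than such a mean of the other 5 types, at an adjusted p of at most 0.05. Of all genes, 40.2% were higher and 33% lower. The same 7 were at least 4-fold above this mean of log2 levels, as were 12.9% of all genes. Hes1 was among them with 29.9 TPM in astrocytes, against 1.16 TPM in cerebellar granule cells up to 20.85 TPM in microglia. For Nfib and Nfix the log2 difference from this mean was small, and both had more TPM in both granule cell types than in astrocytes. The difference turned negative without the microglial libraries, at -0.12 for Nfib and -0.15 for Nfix, against 0.47 and 0.20 with them. The call on Nfix was also lost without astrocyte replicate 3 (0.068, adjusted p = 0.142), which left 9 of 10. In batch 2 alone, which holds 1 astrocyte library, the Nfix difference was 0.038 and missed the threshold.

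**Figure D1:**
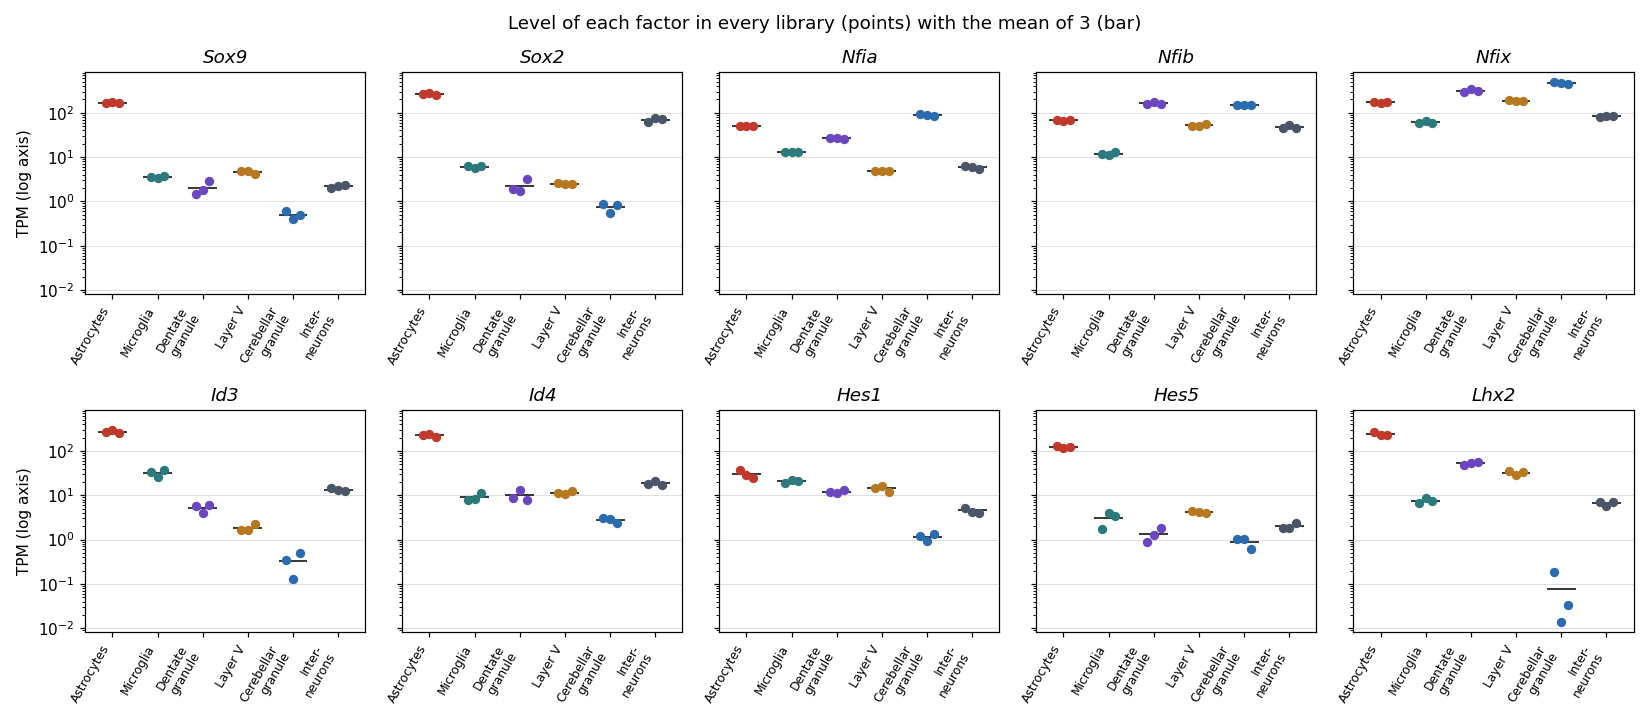
Level of the 10 factors in each of 18 libraries, in TPM on a log axis, by cell type, with each point a library and each bar the mean of 3. In 7 panels the 3 astrocyte points lie above all others, while Nfia, Nfib and Nfix are highest in granule cells.

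Sox9, on chromosome 11 from 112782224 to 112787760 in GRCm38, gave the sharpest drop from astrocytes to the next cell type. It stood at 162.3, 172.7 and 165.4 TPM in the 3 astrocyte libraries. The next highest type, layer V cortical neurons, had 4.72, 4.88 and 4.04 TPM, and cerebellar granule cells had 0.60, 0.40 and 0.50 TPM. No library of another cell type came near the astrocyte range. The mean level was 36.7-fold higher in astrocytes than in layer V neurons, and the log2 fold change over the mean of the other 5 types was 6.57 ± 0.084 (SE, n = 3 per cell type, edgeR adjusted p = 6.53e-21).

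Sox2, a single-exon gene on chromosome 3 from 34650405 to 34652461, was next highest in interneurons. Astrocytes had 257.2, 278.1 and 244.9 TPM and interneurons had 63.2, 75.3 and 71.1 TPM. Microglia followed at 6.18, 5.68 and 6.15 TPM, and every library of the other 3 neuronal types had at most 3.16 TPM. Astrocytes exceeded interneurons by 2.27 ± 0.11 on the log2 scale (adjusted p = 1.47e-12), a much smaller gap than the 5.48 over microglia or the 8.64 over cerebellar granule cells. Sox2 was 26.9% of its astrocyte level in interneurons, where the 16 astrocyte markers had a median of 1.15% and a highest value of 7.78%. Sox2 lies inside the long noncoding gene Sox2ot on the same strand, without a shared exon, and Sox2ot was itself highest in interneurons, at 65.8 TPM against 17.5 TPM in astrocytes. The interneuron libraries, with the most oligodendrocyte-lineage markers, also held 23.4 TPM of Sox10, a factor of that lineage, and the part of such cells in the Sox2 level was not tested. Sox1, a close relative of Sox2, averaged 50.8 TPM in interneurons and 32.6 TPM in astrocytes.

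Nfia, on chromosome 4 from 97772734 to 98118874, spanned 18.3-fold from its highest to its lowest cell type, the widest span of the nuclear factor I genes here. It stood at 50.5, 48.8 and 49.6 TPM in astrocytes and at 94.4, 88.1 and 86.3 TPM in cerebellar granule cells. Dentate gyrus granule cells had 26.9, 26.6 and 26.2 TPM, microglia had 13.0, 12.9 and 13.1 TPM, and interneurons and layer V neurons were lowest, at 5.98 ± 0.49 and 4.90 ± 0.020 TPM (SD, n = 3). The granule cells of the cerebellum exceeded astrocytes, whose log2 difference from them was -0.74 ± 0.062, and no libraries of these types overlapped. An antisense gene, E130114P18Rik, shares exon sequence with Nfia and averaged 58.0 TPM in astrocytes against at most 2.95 TPM in the other cell types. Whether the counting used strand is not given in the sources used here, so reads from the shared stretch could not be assigned with certainty.

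Nfib, on the minus strand of chromosome 4 from 82290173 to 82705750, gave 159.0, 175.2 and 156.6 TPM in dentate gyrus granule cells and 146.2, 150.6 and 149.1 TPM in cerebellar granule cells. Astrocytes were lower at 68.2, 64.2 and 68.3 TPM, and microglia were lowest at 11.8, 10.8 and 13.2 TPM. The astrocyte level fell by 0.87 ± 0.062 on the log2 scale against dentate gyrus granule cells and by 0.89 ± 0.062 against cerebellar granule cells, while it rose by 2.75 ± 0.067 against microglia.

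Nfix, on the minus strand of chromosome 8 from 84699876 to 84800344, had the highest mean TPM of the 10 factors in every cell type but astrocytes. Cerebellar granule cells had 492.6, 474.6 and 450.9 TPM and dentate gyrus granule cells had 297.5, 333.5 and 315.6 TPM. Astrocytes, at 176.6, 161.6 and 172.7 TPM, lay just under layer V neurons, at 192.3, 185.3 and 186.1 TPM. That last difference was -0.13 ± 0.055 on the log2 scale, with an adjusted p of 0.043. The call was lost in 7 alternatives, among them no filter on low counts (-0.10, adjusted p = 0.231), batch 1 alone (-0.069, adjusted p = 0.303) and leaving out astrocyte replicate 2 (-0.13, adjusted p = 0.057). Microglia were lowest, at 59.8, 63.5 and 59.7 TPM. Lyl1, a bHLH gene of blood cells that shares exon sequence with Nfix on the opposite strand, averaged 119.1 TPM in microglia and at most 1.09 TPM elsewhere.

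Id3, on chromosome 4 from 136143497 to 136145755, had the highest astrocyte mean TPM of the 10 factors, although its libraries overlapped those of Sox2. It stood at 273.0, 290.4 and 256.8 TPM in astrocytes, followed by microglia at 33.9, 26.1 and 37.5 TPM and by interneurons at 14.7, 13.1 and 12.3 TPM. Dentate gyrus granule cells averaged 5.30 ± 1.14 TPM, layer V neurons 1.86 ± 0.36 TPM and cerebellar granule cells 0.33 ± 0.19 TPM (SD, n = 3), the last from 34 estimated counts in all. Neighbouring cell types in this order all differed, with adjusted p-values of at most 0.00093. The microglial level was 11.9% of the astrocyte level, above all 16 astrocyte markers there, which reached at most 9.57%. The microglial libraries also held the most endothelial and mural markers, and their part in the microglial Id3 level was not tested.

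Id4, on chromosome 13 from 48261228 to 48266026, was the next ID gene. Astrocytes had 232.8, 246.1 and 210.2 TPM. The next type, interneurons, had 18.2, 21.1 and 17.4 TPM, 12.2-fold below astrocytes in the mean. Layer V neurons, dentate gyrus granule cells and microglia averaged 11.5 ± 0.73, 9.93 ± 2.94 and 8.99 ± 1.76 TPM, and cerebellar granule cells had 2.80 ± 0.42 TPM (SD, n = 3). The log2 fold change over the mean of the other types was 4.90 ± 0.090 (SE).

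Hes1 and Hes5, both Notch effectors, differed in how far they were shared. Hes5, on chromosome 4 from 154960923 to 154962371, stood at 128.8, 119.0 and 121.3 TPM in astrocytes and at no more than 4.36 TPM in any other library, which made the astrocyte mean 29.6-fold that of layer V neurons. Hes1, on chromosome 16 from 30064384 to 30067796, was the least abundant factor in astrocytes, at 37.1, 28.3 and 24.4 TPM. Microglia followed at 18.9, 22.1 and 21.5 TPM, and Hes1 reached 14.96, 16.2 and 11.9 TPM in layer V neurons and 12.0, 10.99 and 13.3 TPM in dentate gyrus granule cells. The astrocyte mean of Hes1 was 1.44-fold that of microglia, a log2 difference of 0.77 ± 0.14 (adjusted p = 0.0001), and the libraries of the 2 types did not overlap. Against the mean of the other types, the log2 fold change was 6.29 ± 0.098 for Hes5 and 2.51 ± 0.10 for Hes1.

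Lhx2, on chromosome 2 from 38339281 to 38369733, had the widest range of levels. Astrocytes had 264.1, 232.0 and 230.3 TPM. Dentate gyrus granule cells had 48.4, 54.8 and 55.1 TPM and layer V neurons had 35.2, 28.3 and 33.5 TPM, while interneurons and microglia averaged 6.63 ± 0.72 and 7.51 ± 0.94 TPM (SD, n = 3). In cerebellar granule cells Lhx2 was close to undetected, at 0.18, 0.014 and 0.033 TPM, from 7 estimated counts over 3 libraries, with an exact 95% Poisson interval of 2.81 to 14.4 counts that covers counting error only. Every library from cortex or hippocampus was above 5 TPM. The fitted log2 difference of 13.1 between astrocytes and cerebellar granule cells rests on those 7 counts and ranged from 7.82 to 14.3 over the alternatives. The log2 difference from dentate gyrus granule cells was 2.62 ± 0.088.

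Type by type, astrocytes were higher than microglia in 10 of the 10 factors, where 39.8% of all genes were higher in astrocytes and 36.3% lower. They were higher than inhibitory interneurons in 10 (38.1% of all genes), higher than layer V cortical neurons in 9 (39%, with 38.2% lower), higher than dentate gyrus granule cells in 8 (38.2%, with 36% lower) and higher than cerebellar granule cells in 7 (47.6%, with 35.1% lower). The genes that were lower in astrocytes belonged to the nuclear factor I family in each case. Nfix was lower than in layer V neurons, Nfib and Nfix were lower than in dentate gyrus granule cells, and all 3 were lower than in cerebellar granule cells. These comparisons share the astrocyte libraries.

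The levels were ordered across the 6 cell types for each factor, and 44 of the 50 neighbouring pairs differed at an adjusted p of at most 0.05. The share of all genes that differed was 76.1%, 74.2%, 77.2%, 82.7% and 73.2% between astrocytes and microglia, dentate gyrus granule cells, layer V neurons, cerebellar granule cells and interneurons. It was 79.8%, 83.2%, 85.5% and 80.8% between microglia and the neuronal types in the same order, 63.4%, 73.9% and 63.9% between dentate gyrus granule cells and layer V neurons, cerebellar granule cells and interneurons, 76.1% and 60.7% between layer V neurons and cerebellar granule cells and interneurons, and 75.2% between cerebellar granule cells and interneurons. The 6 neighbouring pairs that missed the threshold were interneurons and dentate gyrus granule cells for Sox9 (log2 difference 0.038 ± 0.17, SE), layer V neurons and dentate gyrus granule cells for Sox2 (0.35 ± 0.16), interneurons and layer V neurons for Nfia (-0.074 ± 0.066), both granule cell types for Nfib (-0.028 ± 0.062), dentate gyrus granule cells and microglia for Id4 (-0.084 ± 0.15), and both granule cell types for Hes5 (0.46 ± 0.28). In the order of their TPM means, cerebellar granule cells were the lowest of the 6 types for 7 factors, the same 7 that were highest in astrocytes. Microglia were lowest for Nfib and Nfix, and layer V neurons for Nfia. The share of all genes that were lowest in each cell type was not counted. Of all genes, 47.6% were higher in astrocytes than in cerebellar granule cells.

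Microglia, the other glial type, differed from the mean of the 4 neuronal types in 9 of the 10 factors, where 82.3% of all genes differed. Id3 was higher by 3.86 ± 0.15 and Hes1 by 2.18 ± 0.11 on the log2 scale. Sox9 (1.18 ± 0.12), Hes5 (1.02 ± 0.15), Lhx2 (0.87 ± 0.12) and Sox2 (0.72 ± 0.10) were above this mean of log2 levels to a lesser extent. Their microglial means were 3.03 to 7.51 TPM. These low levels were 2.13% to 3.10% of the astrocyte level, next to a median of 2.21% for the astrocyte markers in microglia. In TPM, microglia (7.51) had less Lhx2 than dentate gyrus granule cells (52.8) and layer V neurons (32.3). They had more than interneurons (6.63) and cerebellar granule cells (0.077), whose 7 counts enter the mean. Sox2 in microglia (6.00) was below interneurons (69.9). It was above layer V neurons (2.48), dentate gyrus granule cells (2.25) and cerebellar granule cells (0.76). Lhx2 was lower, not higher, in microglia when log2(TPM + 1) was compared (-0.37). Nfib fell by 2.85 ± 0.061, Nfix by 1.67 ± 0.049 and Nfia by 0.23 ± 0.051, and Id4, at 0.20 ± 0.12, was not called, although it was higher without the interneuron libraries (0.53, adjusted p = 0.00144). The call on Sox2 was lost on log2(TPM + 1), at 0.20.

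Each neuronal type was also set against the mean of the other 3, and members that differed at least 2-fold are named. Interneurons stood out by Sox2, higher by 5.24 ± 0.094, with Id3 higher by 3.10 ± 0.19 and Id4 by 1.29 ± 0.12, while Nfia (-2.22 ± 0.060), Nfix (-2.005 ± 0.051) and Nfib (-1.39 ± 0.055) were lower. In all, 8 factors differed, where 64.4% of all genes did. Cerebellar granule cells differed in all 10, where 77.9% of genes differed, with Nfia higher by 3.39 ± 0.046, Nfix by 1.498 ± 0.042 and Nfib by 1.06 ± 0.048 and the other 7 lower. Of these, the difference was -9.27 ± 0.19 for Lhx2, which rests on 7 counts, -3.72 ± 0.33 for Id3, -3.25 ± 0.16 for Sox2, -3.19 ± 0.18 for Hes1, -2.39 ± 0.18 for Sox9, -2.20 ± 0.15 for Id4 and -1.33 ± 0.22 for Hes5.

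Dentate gyrus granule cells and layer V cortical neurons, which share the Rbp4-Cre driver, both carried more Lhx2 than the other neurons, by 4.73 ± 0.091 and 4.12 ± 0.095, values that include the near absence of Lhx2 in the cerebellum. Hes1 was also higher in both, by 1.48 ± 0.13 and 2.15 ± 0.12. They parted over the nuclear factor I genes. Dentate gyrus granule cells had more Nfib, by 1.02 ± 0.048, and layer V neurons had less Nfia (-2.12 ± 0.060). Layer V neurons also had more Sox9 (2.02 ± 0.12) and more Hes5 (1.88 ± 0.16), and dentate gyrus granule cells had more Id3 (1.08 ± 0.23). The level of Sox2 in dentate gyrus granule cells was lower than in the other neurons (-1.23 ± 0.14), and this turned to 0.52 without the interneuron libraries. The share of factors that differed was 8 of 10 in both types, where 64.2% and 67.6% of all genes differed.

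Astrocyte markers were measurable in every pulldown, so the factors were set beside 16 of them, each expressed as a percent of its own astrocyte mean. None of the 16 markers was at 0 in any cell type. Their median was 2.21% in microglia, 0.92% in dentate gyrus granule cells, 0.68% in layer V neurons, 0.43% in cerebellar granule cells and 1.15% in interneurons. The markers were picked for astrocytes, and the share of all genes above them was not counted. Nfib and Nfix stood above all 16 markers in each of the 5 cell types, Nfia in all but layer V neurons and Hes1 in all but cerebellar granule cells. There Hes1, at 3.88%, was above 14 of the 16, with Atp1b2 (64.0%) and Slc4a4 (29.7%) above it. Hes1 was at 69.7% in microglia, 47.9% in layer V neurons and 40.5% in dentate gyrus granule cells. Lhx2 was at 21.8% in dentate gyrus granule cells and 13.4% in layer V neurons, where it was above 15 and all 16 of the markers.

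Sox9 and Hes5 lay within the range of the markers in every cell type. Sox9 was at 2.73% in layer V neurons, above 12 of the 16 markers, and at 0.30% to 2.13% in the other types, while Hes5 was at 3.38% in layer V neurons, above 13 of the markers. Over the whole marker list, the summed level was 585.0 to 608.0 TPM in layer V neurons, 464.9 to 570.4 TPM in dentate gyrus granule cells and 774.1 to 872.2 TPM in interneurons. The part of astrocyte RNA in these low levels was not tested. In cerebellar granule cells Id3, at 0.12%, and Lhx2, at 0.032%, lay below every marker.

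**Figure D2:**
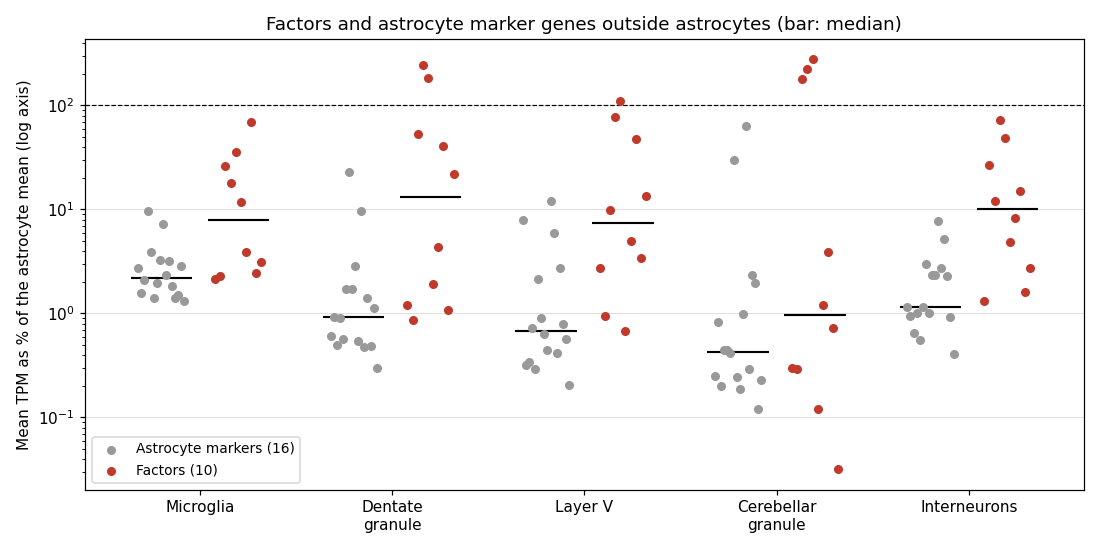
Mean TPM in each of 5 cell types as a percent of the astrocyte mean, on a log axis, for the 16 astrocyte markers (grey) and the 10 factors (red), with bars at the medians and a dashed line at 100%. Nfib, at 244.7% in dentate gyrus granule cells, and Nfix lie above all markers in each cell type, while Sox9 and Hes5 lie within the marker range.

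The choice of transcript was examined in the 6 genes with at least 2 transcripts of 5% or more of the gene's TPM. The main transcript of Hes1, transcript Hes1-201, made up 94.4% ± 1.36 (SD, n = 3) of the gene in astrocytes and 73.6% ± 9.82 (SD, n = 15) in the other libraries, with the highest other library at 87.0%. The difference of 20.9 percentage points had an exact two-sided permutation p of 0.00245, the smallest that 816 splits can give, and 0.0147 after adjustment over the 6 genes. The permutation treated the 15 other libraries as exchangeable. They come from 5 cell types, whose means ran from 62.2% in cerebellar granule cells to 78.4% in microglia, so they are not 15 independent units. Short noncoding transcripts of Hes1 made up the rest in part, from at most 45.2 estimated counts in a library. The difference was 20.4 to 21.6 points with any 1 astrocyte library left out, where the adjusted p of 0.0882 came from the smallest p that 2 astrocyte libraries allow. Leaving out each replicate of any cell type gave 19.2 to 21.8 points. Over all 20 alternatives, among them shares of estimated counts, the Hes1 difference ran from 7.5 to 21.8 points. Lhx2-201 held 83.6% ± 4.64 of Lhx2 in astrocytes and 62.5% ± 18.8 elsewhere (exact permutation p = 0.049, adjusted 0.147), with the cerebellar values resting on 7 counts. The leading transcripts of Nfia, Nfib, Nfix and Hes5 gave no difference that passed the threshold, at 14.1, -0.11, -2.74 and 6.62 percentage points.

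Nfia showed the widest range of transcripts. Nfia-202, a protein-coding form of 11 exons, held 54.6% ± 8.94 (SD, n = 3) of the gene in astrocytes, 57.9% ± 5.84 in microglia and 57.3% ± 2.72 in dentate gyrus granule cells. In layer V neurons it held 3.58% ± 4.90, and Nfia-204, a form of 7 exons, held 56.3% ± 10.2, against 0.021% in astrocytes. Nfia-204 stood at 12.3% ± 5.33 in cerebellar granule cells. This layer V pattern was noticed in the values and not tested. The main forms of Nfib and Nfix were steady, with Nfib-202 between 64.8% and 79.2% and Nfix-204 between 70.7% and 80.0% of their genes over the cell types.

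**Figure D3:**
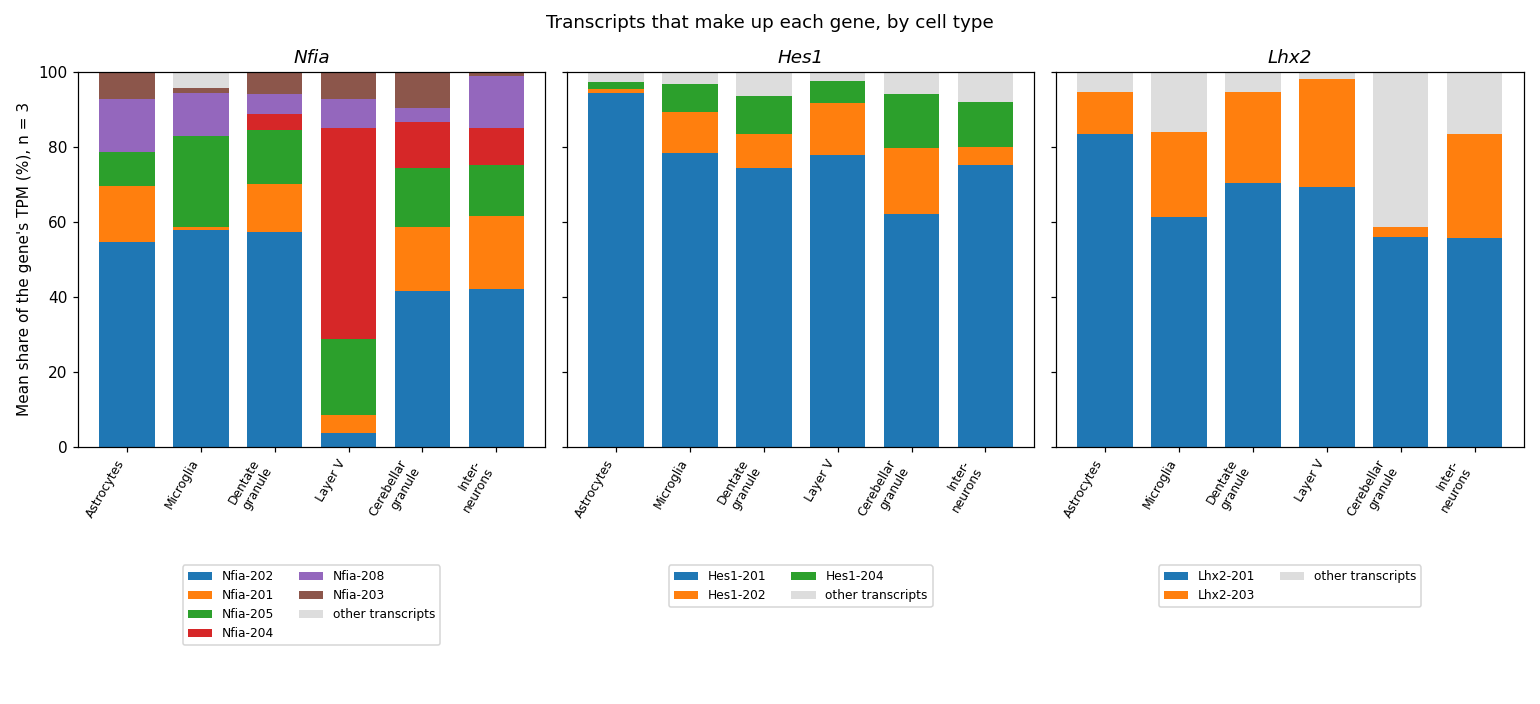
Mean share of the gene's TPM held by each transcript (stacked bars, n = 3 libraries) in 6 cell types for Nfia, Hes1 and Lhx2. Hes1-201 holds 94.4% in astrocytes, Nfia-204 leads in layer V neurons alone at 56.3%, and the Lhx2 bar of cerebellar granule cells rests on 7 counts.

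Relatives of the factors were followed from a list of 32 SOX, nuclear factor I, ID, HES, HEY, LHX and LMO genes, of which 31 were tested. In astrocytes 24 were higher and 5 lower than the mean of the other types, with a median log2 fold change of 1.32. Over all genes 40.2% were higher and 33% lower, with a median of 0.076, and the 10 factors had a median of 5.44. Sox21, which opposes SOX2 targets, was the highest of them (7.41 ± 0.089), at 45.7 TPM in astrocytes and at most 0.94 TPM elsewhere. Heyl followed at 6.03 ± 0.12 and Sox1 at 5.07 ± 0.12. Id2 was the most abundant relative, at 829 TPM in astrocytes, but it stayed at 264 TPM or more in 3 of the neuronal types and rose by 2.64 ± 0.059. Id1 was higher by 4.35 ± 0.13 and shared the microglial level of Id3, at 91.4 TPM in astrocytes, 50.2 TPM in microglia and at most 5.26 TPM in neurons. Nfic (0.49 ± 0.048) had 214 TPM in cerebellar granule cells, 63.2 TPM in astrocytes and 61.8 TPM in microglia, and was lowest in dentate gyrus granule cells, at 28.8 TPM, where Nfib was highest. Sox8 (3.39 ± 0.070), Hey2 (3.68 ± 0.14), Sox10 (1.77 ± 0.12), Hey1 (1.66 ± 0.042) and Hes6 (0.76 ± 0.062) were also higher. Lhx9, a relative of Lhx2, was the lowest (-3.11 ± 0.43), with 18.9 TPM in dentate gyrus granule cells. Lhx5 was also lower (-1.49 ± 0.32), and Lhx1 (-2.88 ± 1.34) was not called.

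Of 31 genes of the Notch pathway, which acts upstream of Hes1 and Hes5, 19 were higher in astrocytes and 7 lower, with a median of 0.57, beside 40.2% and 33% of all genes. The largest differences were in Lfng, a glycosyltransferase that modifies Notch (5.83 ± 0.10), Nrarp, a Notch target and inhibitor (5.54 ± 0.055), and the receptor Notch1 (4.75 ± 0.094). Notch1 averaged 24.9 TPM in astrocytes, 14.5 TPM in microglia and at most 3.06 TPM in neurons. The lowest were Maml3, a coactivator (-1.92 ± 0.22), and the Notch inhibitors Numbl (-1.19 ± 0.070) and Numb (-0.77 ± 0.051). The DNA-binding partner Rbpj, named here after its value was seen, was higher by 0.37 ± 0.041. Against microglia alone 12 Notch genes were higher in astrocytes and 16 lower, where 39.8% of all genes were higher and 36.3% lower.

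Of 23 genes of the BMP pathway, which acts upstream of the Id genes, 14 were higher in astrocytes and 5 lower, with a median of 0.88, beside the same 40.2% and 33% of all genes. The receptor Bmpr1b (6.66 ± 0.093), the ligand Bmp7 (5.55 ± 0.12) and the inhibitory Smad6 (4.03 ± 0.15) led. Smad6 averaged 3.501 TPM in microglia and 3.05 TPM in astrocytes, and Bmp6, named after its values were seen, had 14.7 and 10.5 TPM. Smad7 (-0.95 ± 0.082), the receptor Acvr2a (-0.79 ± 0.079) and the antagonist Chrd (-0.51 ± 0.14) were lower.

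Among 17 tested bHLH genes that the ID and HES proteins counter or pair with, 12 were higher in astrocytes and 5 lower, again beside 40.2% and 33% of all genes. Neurog1 (7.05 ± 0.46, though at 0.98 TPM in astrocytes), Olig1 (4.90 ± 0.072) and Olig2 (4.27 ± 0.091) were the highest. Against the same mean of log2 levels, all 9 oligodendrocyte-lineage markers (median 1.92) and all 10 endothelial and mural markers (median 1.497) were higher in astrocytes. Against microglia alone, 6 of the 9 were higher and 3 were not called, while 9 of the 10 were lower and 1 higher. Of all genes, 39.8% were higher there and 36.3% lower. In interneurons the 9 had a median of 248.4% of their astrocyte level, from 70.6% to 439.3%. The part of such cells in the Olig1 and Olig2 levels was not tested. The neuronal factors Neurod1 (-2.76 ± 0.089), Neurod2 (-1.995 ± 0.10) and Bhlhe22 (-1.87 ± 0.080) were the lowest, with Neurod1 at 938 TPM in cerebellar granule cells and 1.64 TPM in astrocytes. The 21 other transcription factors listed for astrocytes were all higher, with a median of 4.72, led by Dbx2 (7.55 ± 0.069), Rfx4 (7.39 ± 0.089) and Nr2e1 (6.82 ± 0.066), and with Stat3 (0.73 ± 0.043), Zbtb20 (1.80 ± 0.065) and Rest (2.11 ± 0.10) at the other end. For comparison, the 16 astrocyte markers were all higher, with a median of 6.66.

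**Figure D4:**
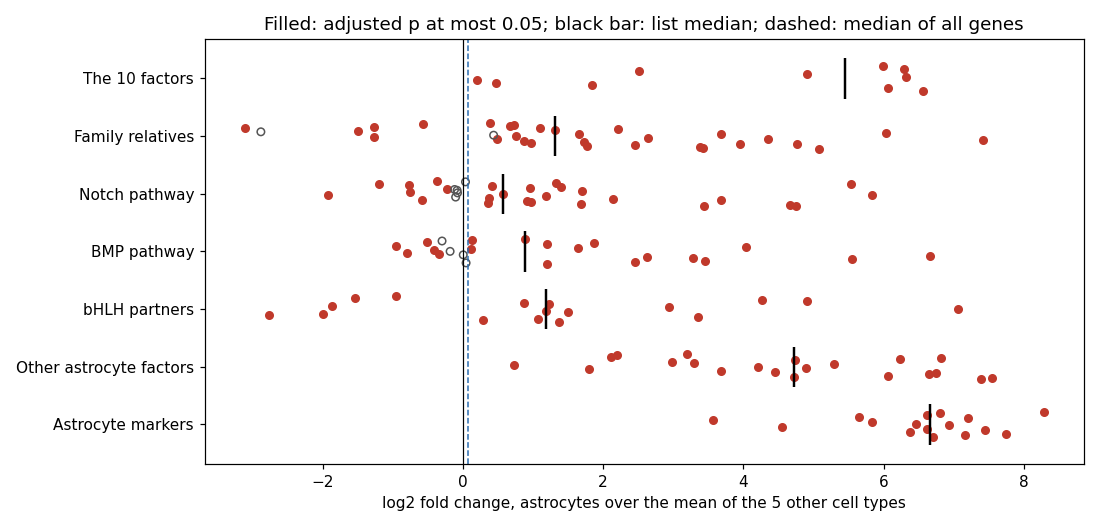
Log2 fold change of astrocytes over the mean of the 5 other cell types for each gene of 7 lists, filled where the adjusted p was at most 0.05, with black bars at the list medians and a dashed line at the median of all genes, 0.076. The 10 factors have a median of 5.44, with Hes1 and the nuclear factor I genes at the lower end. The mean is of log2 levels, so the Lhx2 value includes the 7 cerebellar counts, and it ranged from 4.54 to 6.32 over the alternatives.

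The 7 astrocyte-high factors were grouped by their level in these same libraries, so that correlations among them restate that grouping. Over the 18 libraries their 21 pairs had Pearson correlations of 0.52 to 0.98 in log2 CPM, highest for Sox9 with Hes5, while the 21 pairs of a nuclear factor I gene with one of the 7 ran from -0.56 to 0.18. Nfib and Nfix had a correlation of 0.90. These values describe points that come from 6 cell types and share the contrast between them. The genes most like each factor by the same measure, factors aside, were Bmpr1b and Slc13a5, a citrate transporter, for Sox9 (0.995 and 0.992), Nr2e1, the orphan receptor TLX of neural stem cells, and Car2 for Sox2 (0.991 and 0.989), and Foxn2 and Alkbh5 for Nfia (0.976 and 0.967). Rragd and Crk followed Nfib (0.991 and 0.986), Adora1 and Zfp131 followed Nfix (0.98 and 0.964), and Sorbs3 and Rapgef3 followed Id3 (0.992 and 0.988). For Id4 they were 1190005I06Rik and Igdcc4 (0.987 and 0.986), for Hes1 Nme2 and Cd302 (0.98 and 0.974), for Hes5 Ttyh1 and Rida (0.986 and 0.983), and for Lhx2 Csgalnact1 and Mras (0.995 and 0.994).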

How the data were processed

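Ribosome-bound RNA from 22 libraries of 6 cell types was quantified by the authors. Per the labels and the methods, libraries were made with a stranded kit, adapters were trimmed with cutadapt 3.5 and reads were assigned with kallisto 0.46.2 to GENCODE M24 transcripts. The strand setting is not given in the sources used here. The deposited tables hold, per transcript, estimated counts and TPM, normalized by the authors for length and depth. Both were summed over the transcripts of each gene, in 142552 transcripts and 55385 genes. Positions came from GENCODE M21 (GRCm38), whose gene identifiers matched for all 10 members.

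Counts were rounded and tested with edgeR 4.0.16 in R 4.3.3 (TMM, filterByExpr, quasi-likelihood F test) in 1 fit of the 18 main libraries, with Benjamini-Hochberg adjustment over 20524 genes and a threshold of 0.05. The SE is the log2 fold change over the square root of F. Where several cell types were averaged, their fitted log2 levels were averaged. DESeq2 1.42.0, limma 3.58.1 on log2(TPM + 1), other normalization, no filter on low counts, protein-coding transcripts alone, batch settings, a replicate block and leaving out each replicate were alternatives. Shares of transcripts were compared by exact permutation over 816 splits. The study calls the replicates biological. On simulated data, 81 of 110 genes changed 2-fold and 78 of 90 changed 4-fold were recovered in the comparison of astrocytes with the mean of the others (17816 genes). Intervals cover counting error only. The 10 members and all gene lists were chosen with earlier results of these data known. Named genes were the members, the 2 most alike of each, of each list up to 3 with the largest and 3 with the smallest log2 fold change in astrocytes, direct relatives, overlapping genes and markers whose level bore on a value. Rbpj, Bmp6, Emx2 and Pax6 fell outside this rule.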

Additional observations from a re-analysis of the deposited data

How the results depend on the processing

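The counts of factors that differed between cell types kept within 1.5 times their value in 393 of 399 alternative results, and 2892 of 2928 alternative values of single genes kept their direction and their side of the threshold. Among astrocyte comparisons the exceptions were Nfix and Nfib, against the mean of the other types and against layer V neurons. Against layer V neurons, the call on Nfix was lost in 7 alternatives (with RLE size factors, adjusted p = 0.0604). In batch 2 alone, with 1 library each of astrocytes and layer V neurons, the Nfib difference was 0.29 and missed the threshold. The number of factors lower in astrocytes than that mean went from 0 to 2 with batch 1 alone, which has no microglia or interneurons, and to 2 without the microglia libraries, the latter chosen after seeing the data. Nfib was then -0.40 with batch 1 alone and -0.12 without microglia. Nfix was -0.58 with batch 1 alone, -0.15 without microglia, -0.045 without the interneuron libraries and -0.00107 with limma on log2(TPM + 1). Leaving out each replicate moved Nfix between 0.068 and 0.21, with the call lost at 0.068. In microglia against neurons, Lhx2 was -0.37 and Id4 was -0.014 with limma, and Id4 ran from -0.013 to 0.28 when each replicate was left out. Id4 was called with protein-coding transcripts alone (0.28), without dentate gyrus granule cells replicate 2 (0.24) and without the interneuron libraries (0.53). Sox2 in dentate gyrus granule cells against the other neurons was 0.53 with batch 1 alone and 0.52 without the interneuron libraries. The number of genes with a changed transcript share ran from 0 to 2 when each replicate was left out, with 0 without any 1 of the 3 astrocyte libraries, where 2 libraries allow no smaller p for Hes1 than the one found, and 2 without cerebellar granule cells replicate 2. The share difference of Nfib ran from -1.58 to 1.29 percentage points. The cause of these changes was not tested, except that leaving out libraries removes the cell types named.

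With the replicate number as a block, the adjusted p of Nfix in astrocytes against layer V neurons was 0.0536, at -0.13, and no other call on the factors changed. Same-numbered libraries of different cell types deviated together weakly at most (median correlation 0.029 over 45 pairs, from -0.097 to 0.10). The median was -0.018 for pairs of different number, and 12 of 18 libraries correlated best with one of their own number. Levels under 1 TPM, as for Id3 and Lhx2 in cerebellar granule cells, rest on few counts and have wide intervals.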

Other observations

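The 4 replicates sequenced in both batches gave close levels for the factors. Of 40 pairs of values, 35 were at 1 TPM or more in both runs, and these differed by a median of 0.038 and at most 0.35 on the log2 scale. In astrocyte replicate 2, Sox9 was 172.7 and 175.3 TPM, Id3 290.4 and 291.4 TPM, and Hes1 28.3 and 25.99 TPM in the first and second runs.

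Other genes of the lists also differed widely between astrocytes and cerebellar granule cells, and these were chosen after their values were seen. Emx2 averaged 72.7 TPM in astrocytes and 0.010 TPM in cerebellar granule cells, beside 242.1 and 0.077 TPM for Lhx2. Pax6 went the other way, at 258 TPM in cerebellar granule cells and 54.3 TPM in astrocytes. Region and cell type cannot be told apart.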
